A study of Mus musculus with 18 samples.

Results

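The interferon stimulated genes described here are a set of 39 genes chosen by symbol, from cytosolic RNA sensors to antigen processing enzymes. Of these, 37 were found among the 19518 genes of the deposited kidney table, and Mx1 and Mx2 were not analysed here. A total of 36 reached a signal of 1 in 3 libraries and entered a test across 12031 genes. Oas1g did not reach that minimum and is given by its values only.

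The study asked how a high fat diet acts on the mouse kidney and whether faecal microbiota transplantation, the transfer of gut microbes from donor animals, changes that. Messenger RNA was sequenced from whole frozen kidney in 18 libraries, 3 in each of 6 groups. All mice were ICR, an outbred strain, and 10 weeks old. The control group was labelled as control with no agent, and the AOS group received AOS at 10 mg/kg, a name the labels do not spell out. The HFD group was on a high fat diet alone, and the HFD+AOS group had the diet with AOS at 10 mg/kg. The HFD+AOS-FMT group had the diet with a transplant labelled AOS 10 mg/kg, and the HFD+control-FMT group had the diet with a control transplant. The labels used here give neither the diet's make-up and duration nor the donors of the transplants. Whether the 3 libraries of a group came from different mice is not stated either, and p-values therefore cover the spread of these samples alone, which could be technical.

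Interferons are secreted proteins that cells release on sensing viral nucleic acid or, for interferon gamma, on activation of T and natural killer cells. Type I and type III interferons activate a complex that includes Stat2 and Irf9 and binds the interferon stimulated response element (ISRE) in front of its target genes, while interferon gamma acts through the gamma activated site (GAS). The targets block viral entry, destroy or sense viral RNA and increase antigen display, and in kidney they are known to be low at rest and to be induced in infection and in autoimmune nephritis.

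Promoter windows of 250 bases before the start site show which members carry those elements. Of the 37 genes, 31 had a window in RefSeq (GRCm38.p6). The ISRE core was searched as GAAA, any 2 bases and GAAA again, and the GAS core as TTCNNNGAA. Both strands were read, and matches of one or both motifs may overlap. The ISRE core was in 13 of the 31 windowed members (41.9%) against 3.46% of 27025 genes with a window. The GAS core was in 7 (22.6%) against 8.13%. A window without either core was not particular to Mov10: those of Irf7, Oasl1, Ddx58, Xaf1 and Cmpk2, among others, had none. The 4 windows below are examples and do not stand for the whole set. They are printed 5′ to 3′ in the direction of the gene, with every base of a match in capitals.
Isg15: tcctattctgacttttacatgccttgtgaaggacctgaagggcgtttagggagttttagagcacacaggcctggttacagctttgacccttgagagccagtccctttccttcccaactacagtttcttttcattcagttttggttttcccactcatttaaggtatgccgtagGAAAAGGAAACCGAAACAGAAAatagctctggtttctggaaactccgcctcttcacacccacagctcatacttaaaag
Ifit3: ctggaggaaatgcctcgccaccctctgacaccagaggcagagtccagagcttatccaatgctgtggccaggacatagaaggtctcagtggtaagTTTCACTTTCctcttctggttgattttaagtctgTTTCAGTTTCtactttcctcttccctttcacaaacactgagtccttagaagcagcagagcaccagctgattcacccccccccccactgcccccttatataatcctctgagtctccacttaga
Igtp: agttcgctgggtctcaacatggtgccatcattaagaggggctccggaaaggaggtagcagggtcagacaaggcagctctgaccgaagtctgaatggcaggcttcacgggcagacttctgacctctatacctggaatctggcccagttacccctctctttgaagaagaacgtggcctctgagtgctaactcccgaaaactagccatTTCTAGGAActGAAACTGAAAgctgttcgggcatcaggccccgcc
Mov10: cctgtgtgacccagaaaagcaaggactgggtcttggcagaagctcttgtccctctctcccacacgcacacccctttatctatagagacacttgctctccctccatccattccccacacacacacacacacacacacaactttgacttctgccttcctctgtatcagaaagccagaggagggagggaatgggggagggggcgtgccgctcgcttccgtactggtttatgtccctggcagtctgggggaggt

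Isg15 (chr4:156200819-156201068, minus strand) has 3 overlapping ISRE matches. Ifit3 (chr19:34583279-34583528, plus strand) has 2, which read on the other strand. Igtp (chr11:58199306-58199555, plus strand) has 1 GAS match just before 1 ISRE match. Mov10 (chr3:104818564-104818813, minus strand) has a match to neither in this window, and its second RefSeq window holds none. A match is a description of the letters and not evidence that a factor binds there.

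Values are normalized signals from the authors' table, treated as scaled for gene length and library depth, and the number of reads behind them is unknown. Control replicate 3 stood apart: its summed proximal tubule markers were 17890, against 117030 to 167840 in the other 17 libraries, and 5 adrenal markers summed to 892.21, against at most 2.20. Transcripts of testis germ cells (Prm1, Prm2, Tnp1 and Tnp2) summed to 24.81 to 37.13 in the 3 control libraries and HFD replicates 1 and 2, and to at most 0.30 elsewhere. Differences below are in log2(value + 1), which understates the change of low genes. A gene passed where limma's Benjamini-Hochberg adjusted p over all 12031 genes was under 0.05. In whole kidney, more cells that express a gene and more RNA per cell cannot be told apart.

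Mov10 was higher in kidneys of AOS mice than in controls, and higher with AOS than without it on the high fat diet. It was the only one of the 36 tested members that passed in any comparison. Mov10 encodes an RNA helicase that restrains retroviruses and retrotransposons, and it lies on chromosome 3 from 104794836 to 104818563 on the minus strand (GRCm38). Throughout, 3 values of a group are given in the order of replicates 1, 2 and 3. Its signal was 6.48, 6.85 and 6.94 in control, 10.54, 9.95 and 11.31 in AOS, and 7.56, 8.12 and 7.57 in HFD. It was 11.19, 10.45 and 11.04 in HFD+AOS, 8.69, 8.73 and 9.61 in HFD+AOS-FMT, and 9.05, 10.93 and 8.5 in HFD+control-FMT. Every control and HFD library lay below every library of the other 4 groups.

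**Figure D1:**
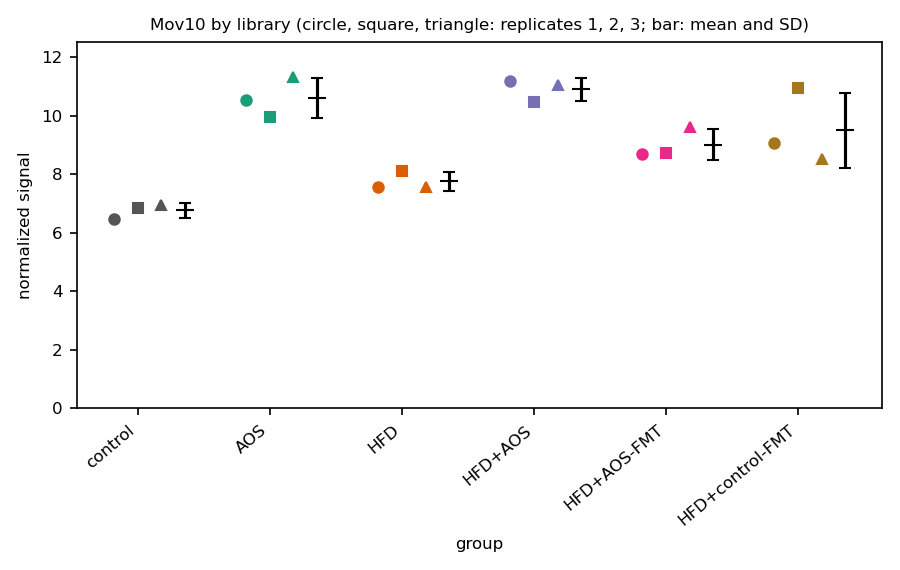
Mov10 normalized signal (vertical axis, from 0) in each library of the 6 groups (horizontal axis), with the group mean and SD (n = 3) as a bar at the right of each group. Control libraries sit at 6.48 to 6.94 and HFD libraries at 7.56 to 8.12, below the other 12 libraries.

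The group means of Mov10 were 6.76 ± 0.24 (SD, n = 3) in control, 7.75 ± 0.32 in HFD, 9.01 ± 0.52 in HFD+AOS-FMT, 9.49 ± 1.27 in HFD+control-FMT, 10.60 ± 0.68 in AOS and 10.89 ± 0.39 in HFD+AOS. In that order, control did not overlap with HFD, nor HFD with HFD+AOS-FMT, while each later pair of neighbours overlapped. AOS exceeded control by 0.58 (SE 0.08, limma adjusted p = 0.0327), where 1 of 36 members and 0.0332% of all genes passed. HFD+AOS exceeded HFD by 0.44 (SE 0.08, limma adjusted p = 0.0233), where again 1 of 36 members passed, against 0.823% of all genes (15.1% at an unadjusted p under 0.05). HFD+AOS-FMT exceeded control by 0.37 (SE 0.08, limma adjusted p = 0.0310), where 1 member passed, against 2.32% of all genes.

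Mov10 also passed the F test over the 6 groups (limma adjusted p = 0.0122), as the single member among 36, where 1.02% of all genes passed. The difference between HFD+AOS and HFD minus that between AOS and control was -0.14 (SE 0.11, limma adjusted p = 0.586). Mov10 did not pass in HFD against control, at 0.17 (adjusted p = 0.285), in HFD+AOS-FMT against HFD, at 0.19 (adjusted p = 0.309), or in HFD+control-FMT against HFD, at 0.26 (adjusted p = 1.00). Between the transplants the difference was -0.06 (adjusted p = 0.903).

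Germ cell transcripts were found where Mov10 was low, in the 3 control libraries and in HFD replicates 1 and 2. Within HFD, Mov10 was 7.56 and 8.12 in replicates 1 and 2, and 7.57 in replicate 3, which had no germ cell transcripts. With 1 HFD library lacking them, these values cannot decide whether Mov10 and these transcripts are linked. With the presence of these transcripts as a term in the fit, the Mov10 differences were 0.62 for AOS against control, 0.47 for HFD+AOS against HFD and 0.41 for HFD+AOS-FMT against control, and none passed (limma adjusted p = 0.861, 0.190 and 0.592, and 0.284 in the F test). HFD was the only group in which that term varied between libraries, so it rested on the 3 HFD libraries. All control libraries and no AOS or HFD+AOS-FMT library held these transcripts. Within AOS against control and HFD+AOS-FMT against control, group and germ cell transcripts therefore cannot be told apart. The call in HFD+AOS against HFD was also lost when any 1 of its own 6 libraries was left out (limma adjusted p up to 0.110, differences of 0.42 to 0.47). Between AOS and control it was lost without any AOS library, without control replicate 1 or 3, and without HFD+AOS replicate 1, HFD+AOS-FMT replicate 2 or HFD+control-FMT replicate 1 (adjusted p up to 0.149). Between HFD+AOS-FMT and control it was lost without any HFD+AOS-FMT library or control replicate 1 (adjusted p up to 0.125). With only the 6 libraries of the comparison in the fit, AOS against control and HFD+AOS-FMT against control did not pass either (limma adjusted p = 0.560 and 0.504).

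The other members varied mainly between libraries of the same group. AOS replicate 3 was the highest of 18 libraries for 19 of the 37 genes, against 2.02% of all tested genes. Control replicate 3 was the highest for the other 18, close to its share of 49.9% over all tested genes, so that count is not particular to the members. In 25 genes these 2 libraries held the top 2 places, against 2% of all genes. AOS replicate 3 was above the gene's own 18-library median for 37 of 37 members, against 41.8% of all genes. Control replicate 3 was above it for 35 of 37, against 76%. HFD+AOS replicate 1 was above the median for 36 of 37 members, against 53% of all genes, and was the highest of the remaining 16 libraries for 23, against 10.5%. At the other end, HFD+control-FMT replicate 2 was the lowest library for 18 members, against 5.54% of all genes. AOS replicate 2 was the lowest for 7 (5.64%) and control replicate 1 for 6 (7.66%).

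**Figure D2:**
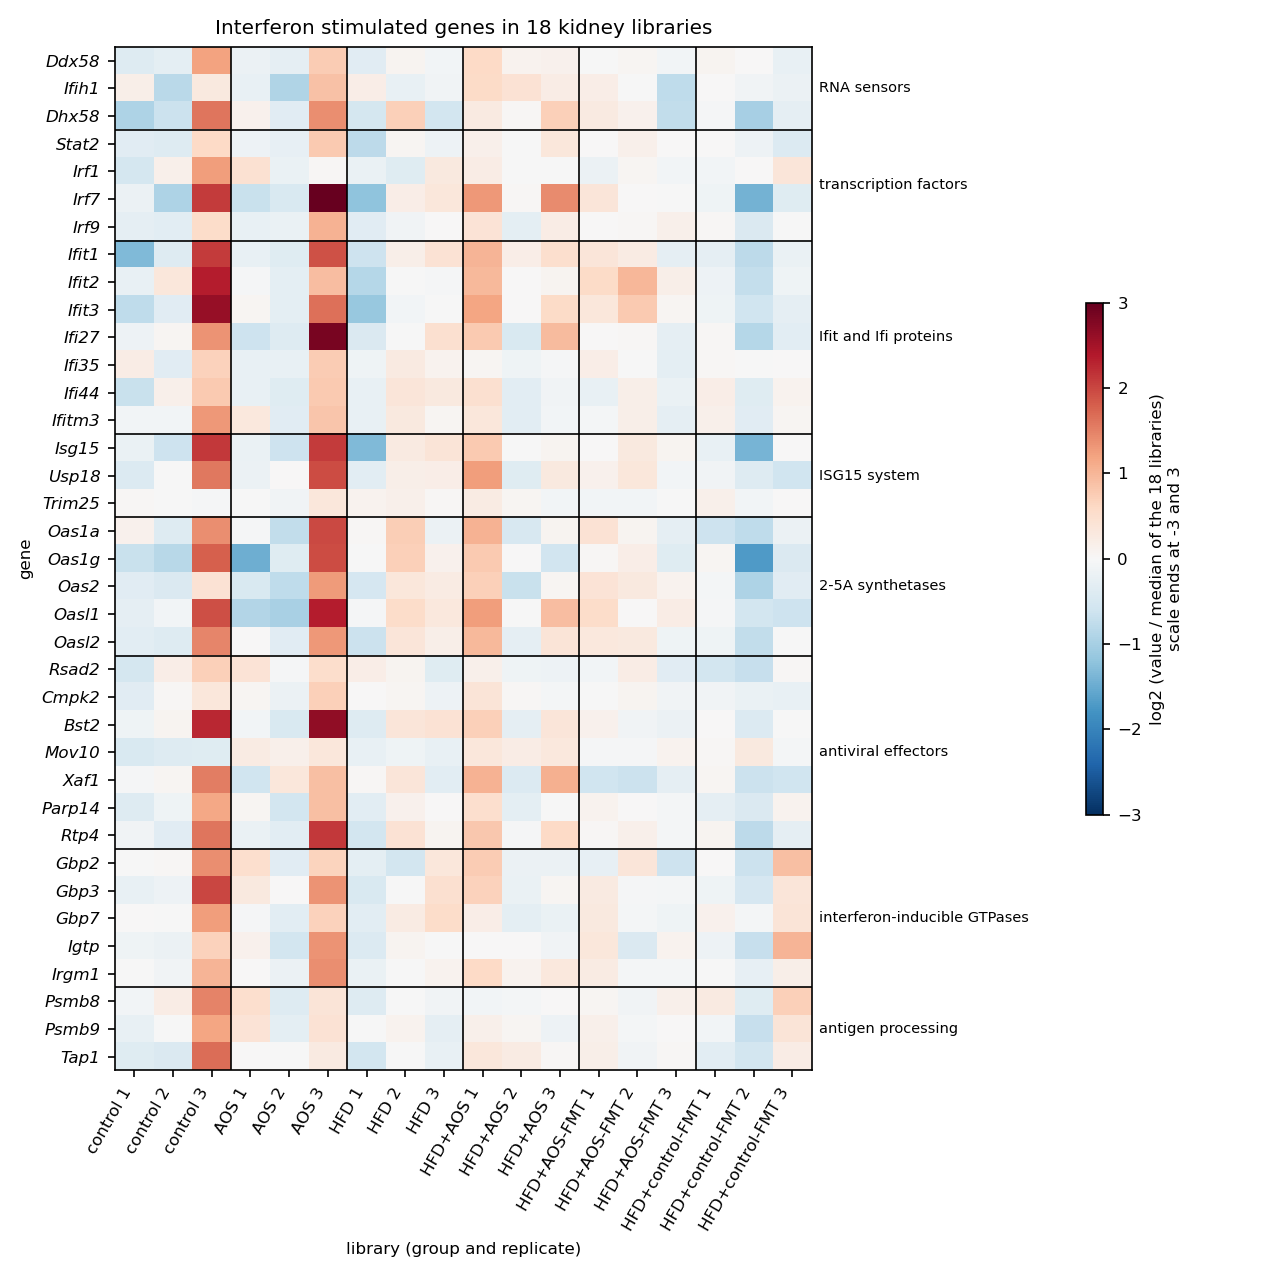
Signal of the 37 members (rows, ordered by role) in 18 libraries (columns), as log2 of the value over the gene's median of the 18 libraries, red above and blue below. The columns of AOS replicate 3 and control replicate 3 are red for most members, while Mov10 follows the groups.

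Set against the mean of AOS replicates 1 and 2, AOS replicate 3 was higher by at least 1 log2 unit for 16 of the 36 tested members, against 0.532% of all tested genes. The median difference of the members was 0.92 and that of all genes -0.02, and Irf7 ranked 3 among all 12031 genes. Control replicate 3 was higher than the mean of its other 2 replicates by at least 1 for 25 of 36 members, against 6.62% of all genes, with medians of 1.21 for the members and 0.23 for all genes. For HFD+AOS replicate 1 the count was 0 of 36, against 0.266%, with medians of 0.39 and 0.02. These are differences between single libraries, with no replicate check. Beside them stand the marker sums: 6 macrophage markers summed to 103.71, 67.80 and 100.20 in AOS and to 114.57, 98.55 and 183.29 in control. The sum of 5 T and natural killer cell markers was 5.99, 6.41 and 5.55 in AOS and 4.48, 2.65 and 5.27 in control. The plasmacytoid and dendritic cell sum was 1.05, 0.82 and 1.44 in AOS, 1.16, 0.72 and 1.55 in control, and 2.37, its highest value, in HFD+AOS replicate 1. B and plasma cell markers summed to 38.86, 24.94 and 15.15 in AOS and to 18.40, 36.67 and 10.52 in control. Control replicate 3 and AOS replicate 3 had the lowest of these B and plasma cell sums in the 18 libraries. Neutrophil markers summed to 3.14, 1.82 and 4.27 in AOS and to 10.55, 3.88 and 2.65 in control. Adipose markers summed to 5.69, 16.17 and 63.15 in AOS, but also reached 102.04 in HFD+AOS replicate 3 and 87.72 in HFD replicate 3. Their part in the members' levels was not tested.

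**Figure D3:**
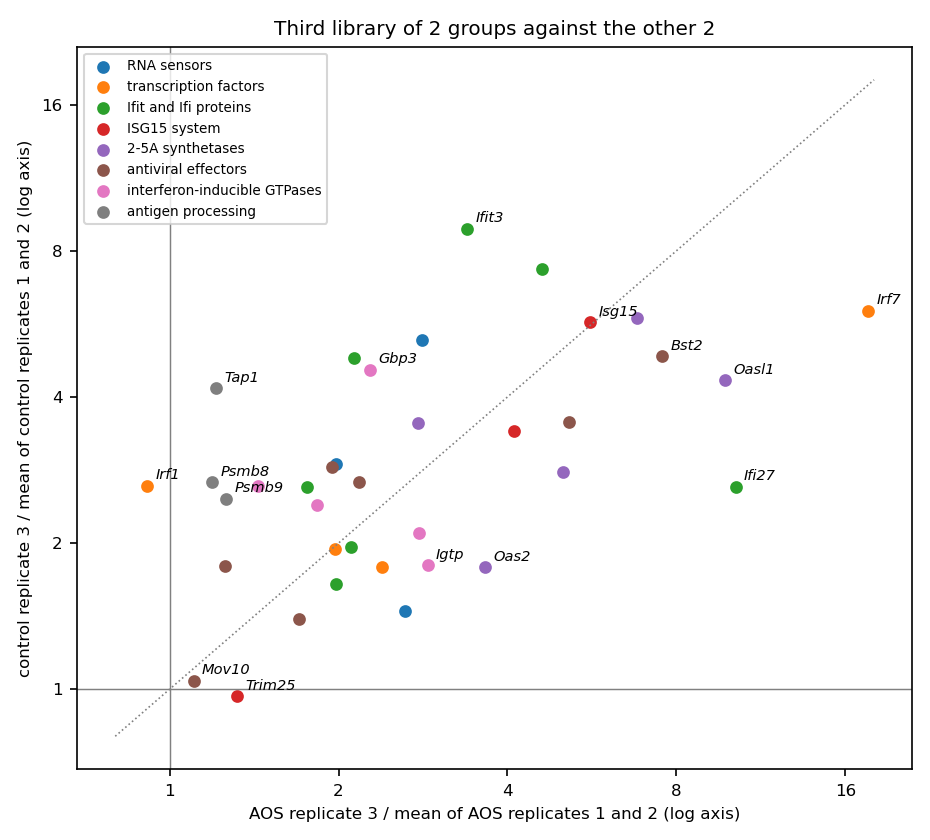
For each of the 37 members, the signal of AOS replicate 3 over the mean of AOS replicates 1 and 2 (horizontal, log axis) against control replicate 3 over the mean of control replicates 1 and 2 (vertical, log axis), coloured by role, with the dotted line at equal ratios. Irf7 lies farthest right at 17.6, Ifit3 is highest at 8.88, and the 3 antigen processing genes are near 1.2 on the horizontal axis but at 2.47 to 4.17 on the vertical one.

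The RNA sensors Ddx58, Ifih1 and Dhx58 detect viral RNA in the cytosol. Ddx58 was 4.34, 4.02 and 8.26 in AOS and 3.74, 3.98 and 11.25 in control, and HFD+AOS replicate 1 followed at 7.35. Dhx58, a regulator of the other 2 sensors, was low throughout, at 0.42 to 2.54, with its highest values in control replicate 3 and AOS replicate 3 (2.21). Ifih1 differed from them in that its second highest library was HFD+AOS replicate 1, at 3.98, after AOS replicate 3, at 4.90.

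Among the transcription factors, Irf7, the factor that amplifies type I interferon production, had the widest spread. Its signal was 7.26, 4.27 and 34.73 in control, 5.08, 5.90 and 96.56 in AOS, and 3.55, 9.29 and 10.33 in HFD. It was 19.95, 8.34 and 21.85 in HFD+AOS, 10.41, 8.26 and 8.01 in HFD+AOS-FMT, and 7.46, 3.04 and 6.30 in HFD+control-FMT. AOS replicate 3 was 17.6 times the mean of the other 2 AOS libraries, and control replicate 3 was 6.02 times that of the other 2 control libraries, so both groups overlap with all others. Exons of 10 members overlap those of another gene on the other strand (Dhx58, Irf1, Irf7, Ifi35, Usp18, Oasl1, Gbp2, Psmb8, Psmb9 and Tap1), and 5 overlap one on the same strand (Irf9, Parp14, Rtp4, Gbp7 and Igtp). Whether the counting used strand is not given in the sources used here, so their reads may include those of the neighbour, Phrf1 in the case of Irf7. Stat2 and Irf9, members of the ISRE-binding complex, had ratios of 1.97 and 2.39 in AOS replicate 3 and 1.95 and 1.79 in control replicate 3. Irf1, a factor induced mainly by interferon gamma, was not high in AOS replicate 3: it was 6.74, 4.25 and 5.01 in AOS, a ratio of 0.912, and 3.40, 5.49 and 11.68 in control, a ratio of 2.63.

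**Figure D4:**
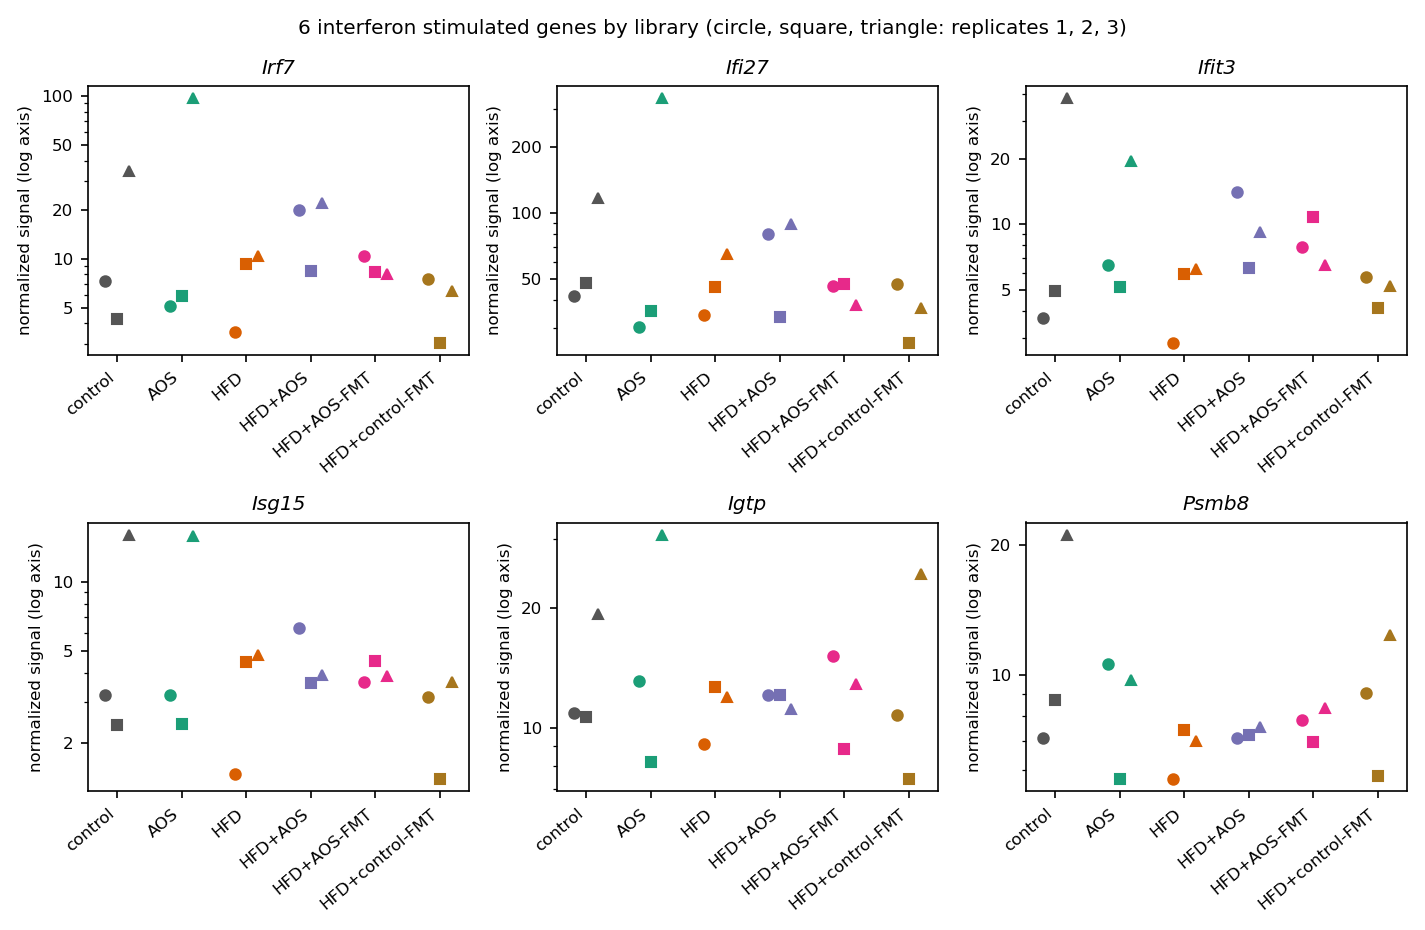
Normalized signal (log axes) of Irf7, Ifi27, Ifit3, Isg15, Igtp and Psmb8 in each library of the 6 groups; symbols mark replicates 1, 2 and 3. The third AOS library is far above the other 2 for Irf7 (96.56) and Ifi27 (335.13) but not for Psmb8 (9.73), and Igtp is also high in the third HFD+control-FMT library (24.39).

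The Ifit proteins bind viral RNA and block its translation. Ifit3 was 3.69, 4.91 and 38.20 in control, 6.49, 5.14 and 19.72 in AOS, and 2.85, 5.93 and 6.21 in HFD. It was 14.14, 6.29 and 9.27 in HFD+AOS, 7.91, 10.81 and 6.49 in HFD+AOS-FMT, and 5.70, 4.13 and 5.20 in HFD+control-FMT. Control replicate 3 stood 8.88 times above the mean of its other 2 replicates, the highest such ratio among the members, and AOS replicate 3 stood 3.39 times above. Ifit1 had ratios of 7.33 and 4.61 in those 2 libraries at a lower level (0.49 to 5.24). Reads of related Ifit genes may have been split between them.

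Ifi27, a small and strongly interferon-inducible protein, was higher in AOS replicate 3 than in control replicate 3. It was 41.93, 47.87 and 117.37 in control, 30.09, 35.65 and 335.13 in AOS, and 80.01, 33.67 and 89.63 in HFD+AOS, and the other 9 libraries lay between 25.59 and 64.87. AOS replicate 3 was 10.2 times and control replicate 3 was 2.61 times the mean of the other libraries of its group. Ifitm3, which stops viruses from fusing with endosomes, had the highest median level of the set (77.18) and reached 189.93 in control replicate 3 and 138.42 in AOS replicate 3. Ifi35 and Ifi44 moved less, with ratios of 1.65 to 2.11 in these 2 libraries.

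The ISG15 system attaches a ubiquitin-like protein to other proteins. Isg15, that protein, was 3.23, 2.38 and 15.98 in control and 3.23, 2.41 and 15.84 in AOS, so the 2 groups had nearly the same values, each with 1 high library. It was 1.46, 4.46 and 4.83 in HFD, 6.32, 3.64 and 3.92 in HFD+AOS, 3.68, 4.52 and 3.91 in HFD+AOS-FMT, and 3.15, 1.39 and 3.68 in HFD+control-FMT. Usp18, which removes Isg15 and damps the type I receptor, followed the same libraries, at 5.15 in AOS replicate 3 and 3.95 in control replicate 3 against at most 3.17 elsewhere. Trim25, the ubiquitin ligase that activates the sensor encoded by Ddx58, varied only from 11.50 to 15.68, and control replicate 3 was at 12.05.

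Active oligoadenylate synthetases make the messenger that activates RNase L. The 5 members grouped under that name, the synthetase-like Oasl1 included, had the highest median ratio of the roles in AOS replicate 3, at 5.03 (2.77 to 9.77). Oas1a was 2.62, 1.60 and 10.62 in AOS and 2.94, 2.06 and 7.02 in control. Oasl1, which in mouse holds back Irf7 translation, was 0.66, 0.62 and 6.25 in AOS and 1.01, 1.15 and 4.68 in control. Oas1g stayed between 0.17 and 2.14, with only AOS replicate 3 (2.14) and control replicate 3 (1.92) above 1. Oas1a and Oas1g are close copies, and reads may have been shared between them.

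Of the antiviral effectors, Bst2, which tethers budding virus to the cell surface, stood most clearly above its range, with 100.69 in AOS replicate 3 and 76.31 in control replicate 3, against 11.66 to 26.40 in the other 16 libraries. Rtp4, an inhibitor of viral RNA replication, had 16.24 and 11.43 in these libraries against 2.17 to 6.60. Parp14, an ADP-ribosyltransferase, had 3.57 and 4.23 against 1.30 to 2.67. Rsad2 (viperin, which makes a chain-terminating nucleotide) and its neighbour Cmpk2 (a mitochondrial nucleotide kinase) overlapped with other libraries more. Rsad2 was 4.10, 3.01 and 4.46 in AOS and 2.14, 3.56 and 5.12 in control. Cmpk2 was 3.52, 2.96 and 5.51 in AOS and 2.64, 3.45 and 4.25 in control. Mov10 did not share the pattern: AOS replicate 3 was 1.10 times and control replicate 3 was 1.04 times the mean of the other 2.

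The interferon-inducible GTPases act on membranes around intracellular microbes. Igtp was 10.90, 10.62 and 19.36 in control, 13.08, 8.21 and 30.69 in AOS, and 10.76, 7.41 and 24.39 in HFD+control-FMT, and 8.85 to 15.14 in the other 9 libraries. One more library thus stood out for Igtp, and HFD+control-FMT replicate 3 held the second place also for Gbp2 (5.53, after 7.79 in control replicate 3) and Psmb8 (12.34). It exceeded the mean of its other 2 replicates by at least 1 log2 unit for 1 of 36 members, Igtp, against 0.407% of all genes. Gbp3 had ratios of 4.55 in control replicate 3 and 2.28 in AOS replicate 3, and Irgm1 had 2.10 and 2.79. Exons of Igtp overlap those of Irgm2 on the same strand, and Gbp genes are close copies, so reads may be shared.

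The antigen processing genes set the 2 libraries apart. Psmb8, a catalytic subunit of the immunoproteasome, was 7.13, 8.75 and 21.17 in control and 10.61, 5.71 and 9.73 in AOS. Tap1, a subunit of the transporter that carries peptides to class I molecules, was 2.32, 2.22 and 9.47 in control and 2.99, 2.96 and 3.60 in AOS. Psmb9, the second immunoproteasome subunit, was 5.0, 5.77 and 13.30 in control and 7.70, 4.74 and 7.84 in AOS. All 3 were highest in control replicate 3, as were 49.9% of all tested genes, at 2.47 to 4.17 times the other control libraries, while the ratios in AOS replicate 3 were 1.19 to 1.26. Exons of Psmb9 and Tap1 overlap each other.

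Most group comparisons shifted with these single libraries. HFD against control, AOS against control and HFD+AOS-FMT against control share the control libraries, and 5 of the 8 contrasts use the HFD libraries, so each is given by its own values. The diet alone had 5 of 36 members higher and 31 lower than control (all genes: 26.9% higher), with a median difference of -0.27 against -0.10 over all genes. No member passed (0 of 36 in limma, against 0% of all genes), and 1 had an unadjusted p under 0.05, against 17.4% of all genes. Without control replicate 3, 33 of 36 members were higher in HFD, with a median of 0.13, and with library weights 26 were (median 0.08). With quantile normalization, which moved the median of all genes to 0.01, 10 were higher.

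The members with the smallest p in HFD against control were Mov10, Psmb8 and Ifit2, none of which passed. Psmb8 was 5.73, 7.44 and 6.99 in HFD, a difference of -0.65 (SE 0.31, limma adjusted p = 0.294), and without control replicate 3 its control values are 7.13 and 8.75. Ifit2, a partner of Ifit1 and Ifit3, was 1.60, 2.36 and 9.54 in control and 1.03, 1.86 and 1.84 in HFD, a difference of -0.83 (SE 0.40, limma adjusted p = 0.294). Only Mov10 had groups that did not overlap (1 of 36, against 15.7% of all genes).

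AOS on the high fat diet had 30 of 36 members higher than the diet alone and 6 lower (all genes: 53.1% higher), with a median of 0.22 against 0.01. Every transcription factor (4 of 4), RNA sensor (3 of 3), oligoadenylate synthetase tested (4 of 4) and antigen processing gene (3 of 3) was on the higher side, without passing. The other roles were split, with 4 of 7 Ifit and Ifi proteins, 2 of 3 ISG15 system genes, 6 of 7 antiviral effectors and 4 of 5 GTPases higher. Of the 36 members, 1 had an unadjusted p under 0.05 (limma), against 15.1% of all genes. Groups did not overlap for 7 of 36 members, all higher with AOS (Ddx58, Ifih1, Ifit2, Ifit3, Mov10, Irgm1 and Tap1), against 28.2% of all genes. Beside Mov10 the smallest p belonged to Stat2, at 0.37 (SE 0.25, limma adjusted p = 0.528), and Ifit3, at 0.85 (SE 0.64, limma adjusted p = 0.591). Stat2 was 5.93, 5.30 and 6.80 in HFD+AOS and 3.11, 5.59 and 4.78 in HFD. Without HFD+AOS replicate 1, 23 members were higher and the median fell to 0.08, and without HFD replicate 1, 25 were and it fell to 0.11.

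The AOS transplant on the high fat diet had 23 members higher and 13 lower than the diet alone (all genes: 62.4% higher), with a median of 0.04 against 0.05. No member passed (0 of 36 in limma, against 0.175% of all genes), and 1 had an unadjusted p under 0.05, against 13.3%. Quantile normalization left 13 higher with a median of -0.06, and leaving out HFD replicate 1 left 11 with a median of -0.04. Groups did not overlap for 4 members, against 25.2% of all genes: Ifit2, Ifit3 and Mov10 were above HFD and Trim25 below. Ifit2 was 2.81, 3.76 and 2.13 with the transplant, a difference of 0.59 (SE 0.40, limma adjusted p = 0.556). Trim25 was 11.71, 11.55 and 12.16, against 13.33, 13.67 and 12.53 in HFD, a difference of -0.15 (SE 0.10, limma adjusted p = 0.556).

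The control transplant had 11 members higher and 25 lower than the diet alone (all genes: 53.7% higher), with a median of -0.08 against 0.01. No member passed (0 of 36 in limma, against 0% of all genes), and 1 had an unadjusted p under 0.05, against 4.5% of all genes. Rsad2 differed by -0.27 and Oas1a by -0.51 (SE 0.21 and 0.47, limma adjusted p = 1.00 for both). Oas1a was 1.75, 1.59 and 2.39 with the control transplant and 2.74, 4.46 and 2.39 in HFD. The groups were apart for Mov10 (above) and Oasl1 (below), 2 of 36 members, against 15.4% of all genes. Without HFD+control-FMT replicate 2 the count was 18 of 36 higher, with a median of -0.0034.

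Between the transplants, 24 members were higher after the AOS transplant and 12 lower (all genes: 61.9% higher), with a median of 0.13 against 0.04. No member passed (0 of 36 in limma, against 0% of all genes), and 0 had an unadjusted p under 0.05, against 7.02%. Groups did not overlap for 6 members, all higher after the AOS transplant (Irf7, Ifit2, Ifit3, Usp18, Oas2 and Oasl1), against 18% of all genes. Ifit2 was 2.81, 3.76 and 2.13 after the AOS transplant and 1.69, 1.14 and 1.72 after the control transplant, a difference of 0.62 (SE 0.40, limma adjusted p = 0.796). Oas2 was 1.97, 1.82 and 1.58 against 1.42, 0.78 and 1.16, a difference of 0.41 (SE 0.29, limma adjusted p = 0.814). Rsad2, at 2.95, 3.65 and 2.46 against 2.11, 1.92 and 3.20, overlapped between the transplants (difference 0.25, limma adjusted p = 0.854). Without HFD+control-FMT replicate 2 the median fell to 0.05.

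AOS against control had 19 members higher and 17 lower (all genes: 27.1% higher), with a median of 0.02 against -0.09. The split turned on the third library of each group: without AOS replicate 3 only 2 members were higher (median -0.35), without control replicate 3 all 36 were (median 0.37), and without both 19 were (median 0.01, a setting added after the values were seen). Quantile normalization, which moved the median of all genes to 0.01, gave 27 higher, and library weights 34. Only Mov10 had groups that did not overlap (1 of 36, against 13.2% of all genes). After Mov10 the smallest p belonged to Ifit2, at -0.49 (SE 0.40, limma adjusted p = 0.557), and Psmb8, at -0.36 (SE 0.31, limma adjusted p = 0.586), and both were above 0 without control replicate 3 (0.12 and 0.08).

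HFD+AOS-FMT against control had 4 members higher and 32 lower (all genes: 36.9% higher), with a median of -0.22 against -0.06, and without control replicate 3 had 30 higher, with a median of 0.16. Library weights gave 25 higher. Mov10 lay above control and Xaf1 below it without overlap, 2 of 36 members, against 16% of all genes. Xaf1, a protein that promotes cell death in interferon-treated cells, was 3.26, 3.51 and 9.71 in control and 2.23, 2.15 and 2.79 with the AOS transplant, a difference of -0.81 (SE 0.38, limma adjusted p = 0.264). Psmb8 was 7.86, 6.96 and 8.38 with the AOS transplant, a difference of -0.47 (SE 0.31, limma adjusted p = 0.436).

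**Figure D5:**
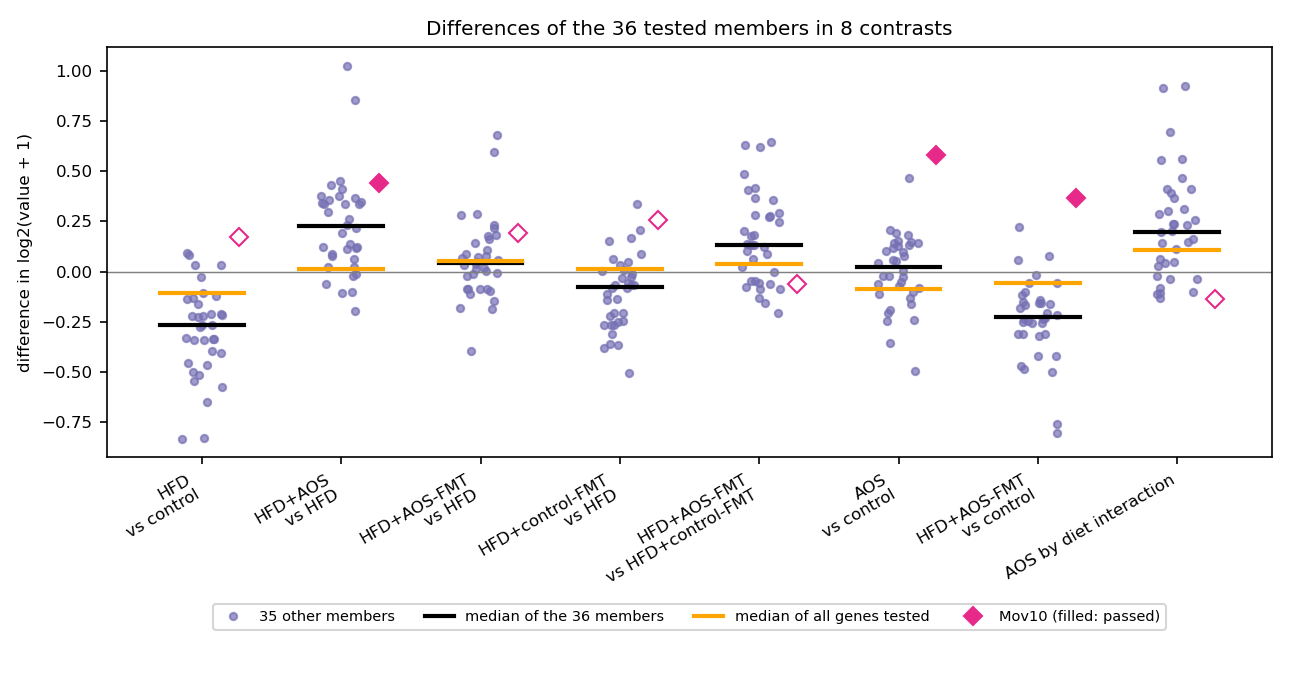
Differences in log2(value + 1) (vertical axis) of the 36 tested members in 8 contrasts (horizontal axis); diamonds are Mov10, filled where it passed, and bars are the medians of the members (black) and of all 12031 genes (orange). The members' median is lowest in HFD against control (-0.27) and highest in HFD+AOS against HFD (0.22), and no member other than Mov10 passed.

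In the interaction, the difference between HFD+AOS and HFD was above that between AOS and control for 27 of 36 members (all genes: 68.4%). The median was 0.20 against 0.11. No member passed (0 of 36 in limma, against 0% of all genes), and 0 had an unadjusted p under 0.05, against 12.4%. Ifit2 had a difference of 0.92 (SE 0.56, limma adjusted p = 0.467), Xaf1 of 0.70 (SE 0.53, limma adjusted p = 0.553) and Tap1 of 0.55 (SE 0.45, limma adjusted p = 0.578). Without control replicate 3, 5 members were above 0, with a median of -0.23 and Tap1 at -0.01, and without AOS replicate 3, 34 were (0.55). Quantile normalization, with the median of all genes at -0.0038, gave 22 above 0, and library weights 10.

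The F test named Xaf1, Ifit2, Rsad2, Psmb8 and Cmpk2 after Mov10, and none of these passed (limma adjusted p = 0.426, 0.509, 0.529, 0.616 and 0.714). Xaf1 was 2.23, 4.25 and 6.30 in AOS, 3.47, 4.35 and 2.69 in HFD, 6.90, 2.55 and 7.06 in HFD+AOS, and 3.52, 2.16 and 2.22 in HFD+control-FMT. It was highest in control replicate 3, and within HFD+AOS its replicates 1 and 3 were far above replicate 2. Ifit2 was 1.83, 1.54 and 3.59 in AOS and 3.66, 1.89 and 1.99 in HFD+AOS, and its second highest library was HFD+AOS-FMT replicate 2. Rsad2 was 3.54, 3.31 and 2.40 in HFD and 3.45, 2.83 and 2.79 in HFD+AOS. Psmb8 was 7.13, 7.23 and 7.54 in HFD+AOS and 9.08, 5.80 and 12.34 in HFD+control-FMT. Cmpk2 was 3.40, 3.52 and 3.03 in HFD, 4.42, 3.46 and 3.22 in HFD+AOS, 3.33, 3.58 and 3.13 in HFD+AOS-FMT, and 3.14, 2.95 and 2.87 in HFD+control-FMT, a range narrower than that of AOS alone.

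Other genes of the pathway gave the members' levels their setting. Of 21 interferon genes listed, 8 were in the table, 3 of them, Ifnb1 among them, listed at 0 in every library, and the 8 summed to at most 0.43, in control replicate 3. Interferon gamma (Ifng) was at most 0.20. All 6 receptor subunits were highest in control replicate 3, where they summed to 126.54 against 80.40 to 100.22 elsewhere, and 49.9% of all tested genes were highest in that library too. Of 45 other interferon-inducible genes in the table, 11 were highest in AOS replicate 3 (2.02% of all tested genes), among them Lgals3bp (328.84, median 54.2) and Ifi27l2a (174.49, median 43.5), and 27 in control replicate 3 (49.9%). All 9 class I antigen presentation genes, such as B2m (1207.90, median 692), were highest in control replicate 3, again beside 49.9% of all tested genes. Of the 94 other pathway genes in the table, 76 were tested and 0 passed in any of the 8 contrasts or the F test (limma). At an unadjusted p under 0.05 there were 9 of the 76 in HFD against control, where 17.4% of all genes were. In HFD+AOS against HFD there were 4 of 76, against 15.1% of all genes. Each other comparison had 1 to 3 of 76, against 4.5% to 19% of all genes.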

How the data were processed

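Kidney RNA of ICR mice was sequenced in 18 libraries, 3 in each of 6 groups. Per the submitters' processing notes, Bowtie 0.12.2 and mm10 were used. How reads were counted, with which annotation, and how counts were normalized is not given in the sources used here. Per gene symbol, the values deposited by the authors are a normalized signal with no unit stated. Their sums per library varied by 3.5% (coefficient of variation), and by 0.815% after weighting by transcript length (97.3% of rows had a GENCODE M21 length), so the signal was treated as scaled for length and depth. Of all values 17.26% were listed at 0. Of 19545 entries, 26 symbols turned into dates and 1 repeated entry were left out. Read depth is unknown and counting intervals could not be computed. Mx1 and Mx2 are not analysed here.

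Genes with at least 1 in 3 libraries (12031) were fitted as log2(value + 1) in limma 3.58.1 (R 4.3.3), with all 6 groups, 12 residual degrees of freedom, trend and robust estimation and two-sided tests. P-values were adjusted by Benjamini-Hochberg over all genes, separately for 8 contrasts, with a threshold of 0.05. The fit was tested on simulated data with independent normal noise for each gene and no outlying library. That test does not cover a library such as control replicate 3, and its outcome is not given here. The members and gene lists were chosen with earlier results of these data known. Named are members that passed or the 3 with the smallest p in a contrast, the 6 in the F test, and members with a library far from the rest. Coordinates are from GENCODE M21 on GRCm38, and promoter windows and their letters from RefSeq (GRCm38.p6).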

Additional observations from a re-analysis of the deposited data

How the results depend on the processing

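In up to 29 alternatives per comparison, no member other than Mov10 passed in any contrast or in the F test. Of 259 counts of members called under the alternatives, 27 moved, each from 1 to 0. One alternative added the presence of germ cell transcripts as a term, set from the values and not from the labels. With it the count was 0 in HFD+AOS against HFD, AOS against control, HFD+AOS-FMT against control and the F test. It was 0 with only the groups compared, in AOS against control and in HFD+AOS-FMT against control. With the replicate block it was 0 in the same 2 contrasts (Mov10 adjusted p = 0.0586 and 0.0515) and changed no other call. With 1 library left out, members called ranged from 0 to 1 in HFD+AOS against HFD, AOS against control and HFD+AOS-FMT against control, and stayed at 1 in the F test. With both control replicate 3 and AOS replicate 3 left out, an alternative chosen after seeing the data, it was 0 in AOS against control. Over its alternatives the Mov10 adjusted p ran from 0.00392 to 0.190 in HFD+AOS against HFD, from 0.00292 to 0.861 in AOS against control and from 0.0163 to 0.592 in HFD+AOS-FMT against control. Signs were followed one by one only for the 3 members with the smallest p in each contrast. Among these, 3 cases changed sign, each without control replicate 3. As single libraries were left out, Ifit2 in AOS against control ranged from -0.89 to 0.12 and Psmb8 from -0.64 to 0.081. Tap1 in the interaction ranged from -0.0059 to 0.84. The signs of the whole set were less stable. Members higher in HFD than in control went from 5 to 33 of 36 without control replicate 3. Those higher in AOS than in control went from 19 to 2 without AOS replicate 3. Whether replicate numbers pair the samples is not stated in the labels. The deviations of 45 same-numbered pairs correlated at -0.16 to 0.26 (median -0.02), with 5 pairs above 0.1. With 3 libraries a group and unknown read depth, differences of low members such as Oas1g (0.17 to 2.14) are imprecise, and the cause of the lost calls was not tested.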

Other observations

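HFD+control-FMT replicate 3 was the highest library for 4 of the 94 other pathway genes in the table, against 1.49% of all tested genes. These 4 were the GTPases Iigp1 (7.82, median 3.28), Tgtp1 (8.88, median 3.33) and Tgtp2 (5.12, median 2.71), and the chemokine Cxcl9 (3.64, median 1.08), which draws T cells. Ifng, the gene of interferon gamma, was at 0.19 in that library and at most 0.20 in any. The summed macrophage markers (80.82) and T and natural killer cell markers (5.0) of HFD+control-FMT replicate 3 lay within the range of the other 17 libraries. These genes were chosen after their values were seen, and no test was made on them.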
